A study of Mus musculus with 10 samples.

Results

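Igfbp4, Actn1, Atp1b1, Cnn3, Dapl1, Treml2, Cd55, Pdlim1, Itih5 and St8sia1 are 10 genes that had been picked, from earlier results of these data, as high in the CD62L-high fraction of mouse splenic regulatory T cells (Tregs). They are 10 of the 19938 genes measured, and each was read from its brightest probe set. Tregs are CD4 T cells that restrain immune responses and depend on the transcription factor Foxp3. They were sorted from the spleens of female C57BL/6 mice of 9 to 14 weeks as CD4+ cells carrying a red fluorescent reporter of Foxp3, and split by CD62L, CD69 and Klrg1. The groups were FR3 Klrg1+ (CD62Llo CD69+ Klrg1+, 1 array), FR3 Klrg1- (CD62Llo CD69+ Klrg1-, 4 arrays), FR2 (CD62Llo CD69- Klrg1-, 2 arrays) and FR1 (CD62Lhi CD69- Klrg1-, 2 arrays). The mice of all groups carried the reporter and no treatment is given. The labels describe arrays of a group as biological replicates and do not say whether animals were pooled. Levels below are RMA log2 intensities, on which a difference of 1 is a doubling.

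CD62L is the L-selectin that lets naive and central lymphocytes enter lymph nodes, CD69 marks recent activation and retention in tissue, and Klrg1 marks terminally differentiated effector cells. CD62L-high Tregs recirculate through lymphoid organs, while CD62L-low Tregs hold most effector functions and enter other tissues. Recirculation rests on adhesion receptors and on the actin cortex beneath them, where cross-linkers such as alpha-actinins join filaments to each other and to membrane complexes. Of the 10 genes, Actn1, Pdlim1 and Cnn3 encode actin-associated proteins, and Treml2, Atp1b1 and Cd55 encode proteins of the cell surface. Igfbp4 and Itih5 encode secreted proteins, St8sia1 a Golgi enzyme that makes a membrane glycolipid, and Dapl1 an intracellular protein, so the name "surface and cytoskeletal" covers only some of them.

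The arrays lay in 2 sets that cut across the groups, as earlier results had shown. The first set held FR3 Klrg1- replicates 1 and 2, FR2 and FR1, and the second held the FR3 Klrg1+ array and FR3 Klrg1- replicates 3 and 4. Over all probe sets, arrays of the same set correlated at 0.972 to 0.991 and arrays of different sets at 0.901 to 0.921. Groups were therefore compared with the array set as a term in the fit, which compares FR3 Klrg1-, FR2 and FR1 within the first set, and FR3 Klrg1+ with FR3 Klrg1- within the second. Another array, titled FR3 with the marker text of FR1, entered no comparison. Its Klrg1 transcript stood at 12.41, against 5.43 and 5.78 on the FR1 arrays, although its text says Klrg1-. On the grouped arrays Klrg1 followed its gate, at 12.33 in FR3 Klrg1+, 6.54 to 7.47 in FR3 Klrg1-, 6.44 and 6.58 in FR2 and 5.43 and 5.78 in FR1. The Cd69 transcript did not follow its gate within the first set, at 12.02 and 12.16 in the CD69+ FR3 Klrg1- arrays, 11.86 and 12.17 in FR2 and 12.11 and 12.41 in FR1. The transcript of CD62L itself was not analysed here. In sorted bulk RNA, fewer cells expressing a gene and less RNA per cell cannot be told apart.

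Levels were in stepwise order for most of the 10 genes in the first set. On the single FR3 Klrg1+ array most lay below FR3 Klrg1- of the second set. These were not all the same genes, as Atp1b1 was lower there without being in stepwise order. In 8 of the 10, both FR3 Klrg1- arrays lay below both FR2 arrays, which held in 24.2% of all genes, and in the same 8 the FR2 arrays lay below both FR1 arrays. The full order held in 4.03% of all genes, and since the genes had been chosen as high in FR1 nothing is read from that difference. The exceptions were Atp1b1 and Itih5, which were lower in FR2 than in FR1 and no lower in FR3 Klrg1-. In FR3 Klrg1- against FR2, 5 of the 10 fell (limma, Benjamini-Hochberg over all genes), where 1.94% of all genes fell and 4.75% changed in either direction. These were Cd55, Igfbp4, Pdlim1, Treml2 and Actn1. In FR3 Klrg1+ against FR3 Klrg1-, 5 of the 10 fell, where 2.82% of all genes fell and 4.96% changed in either direction, and these were Actn1, Atp1b1, Pdlim1, St8sia1 and Treml2. The Klrg1+ array lay below both FR3 Klrg1- arrays of its set for 7 of the 10, and 36.0% of all genes did so. For 6 this came with the full order in the first set, as for 1.85% of all genes. Actn1, Pdlim1 and Treml2 fell in both comparisons, as did 0.105% of all genes. The first of these comparisons uses FR2 and FR3 Klrg1- arrays that also took part in the comparisons with FR1 from which the genes were chosen, so its p-values are not independent of the choice. The second set holds none of the FR1 or FR2 arrays, but its results too were known when the genes were chosen.

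**Figure D1:**
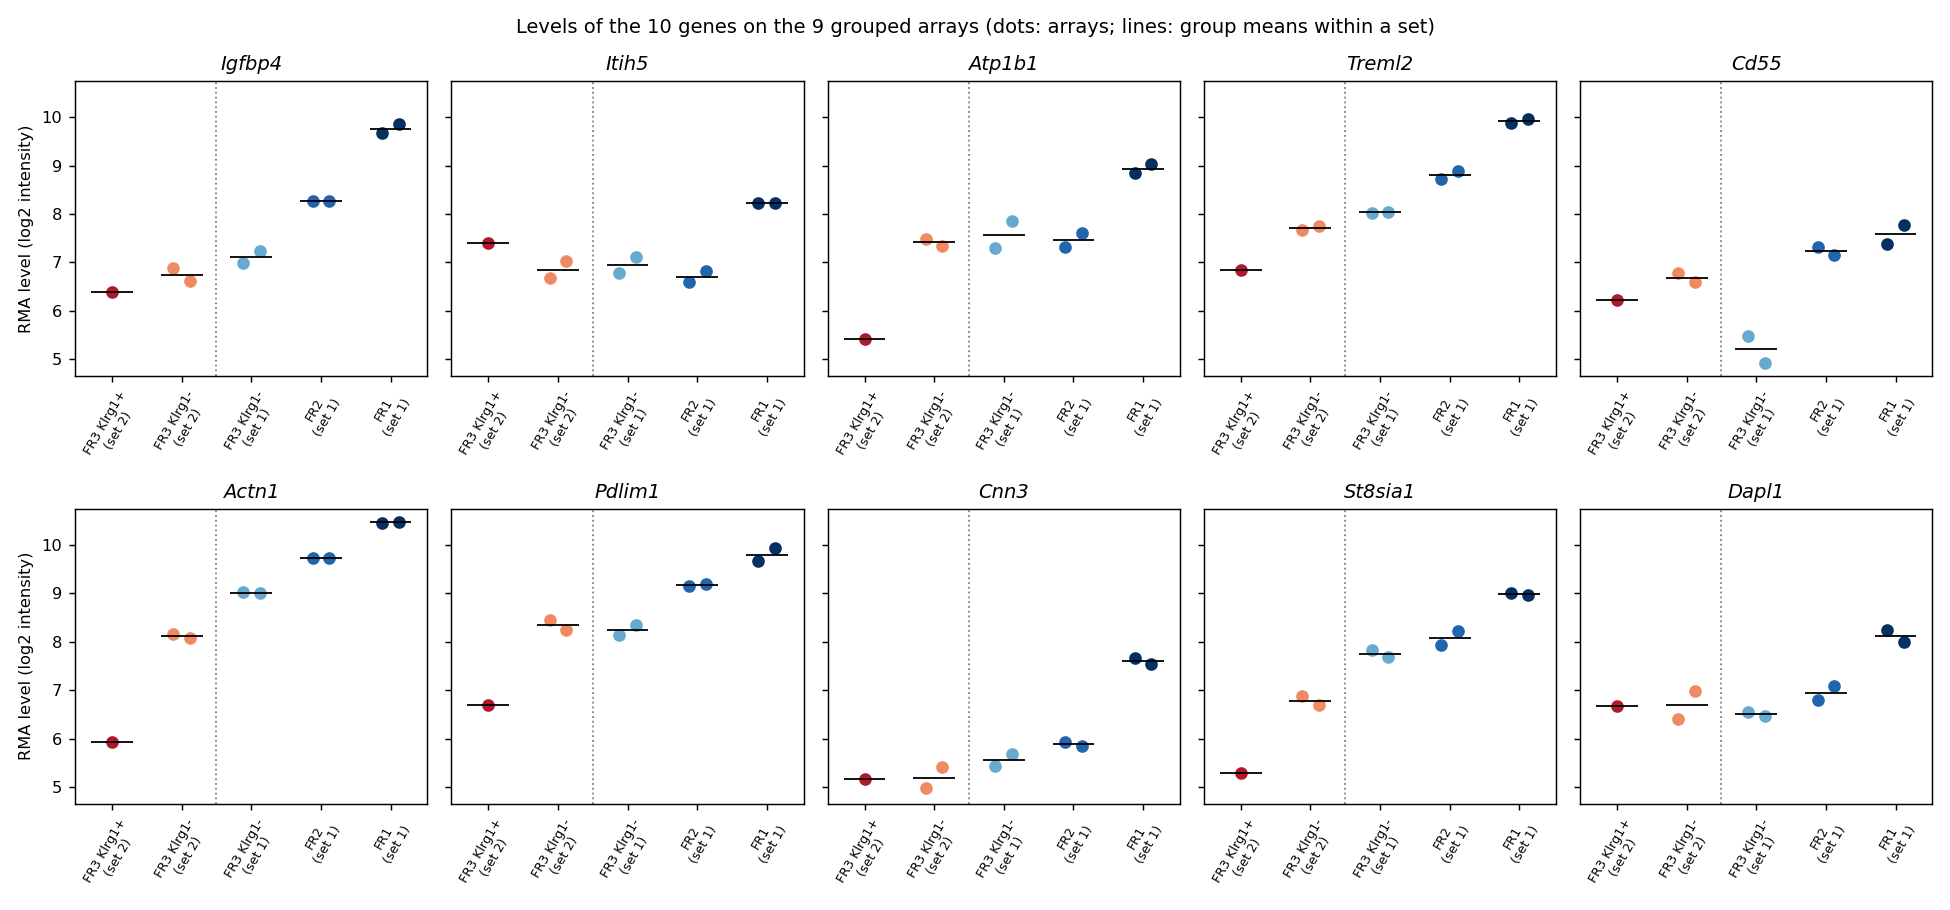
RMA log2 level (vertical axis) of each of the 10 genes on the 9 grouped arrays, by group and array set, with a dotted line between the sets. Dots are arrays and horizontal lines are group means within a set. Actn1, Treml2 and Igfbp4 lie on separate levels in each group of the first set, while Atp1b1 and Itih5 are level between FR3 Klrg1- and FR2.

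Actn1 and Pdlim1, whose products bind each other, fell in both tested comparisons. Actn1 encodes alpha-actinin-1, which cross-links actin filaments. It stood at 5.94 on the FR3 Klrg1+ array and at 8.15 and 8.08 on FR3 Klrg1- replicates 3 and 4. In the first set it was at 9.02 and 9.00 in FR3 Klrg1-, at 9.72 and 9.73 in FR2 and at 10.46 and 10.47 in FR1. No groups overlapped within a set, and replicates differed by 0.07 or less. Actn1 fell by 2.18 ± 0.15 (SE) in FR3 Klrg1+ against FR3 Klrg1- (n = 1 and 2 in the set, limma adjusted p = 1.77e-06). It fell by 0.72 ± 0.12 in FR3 Klrg1- against FR2 (n = 2 each, limma adjusted p = 0.00277), and FR2 minus FR1 was -0.74 ± 0.12. The last 2 differences lay 0.03 apart, with a 95% interval of -0.43 to 0.48. On the FR3 Klrg1+ array its level was in the range of marker lists of other cells. It lay there at percentile 42.2 of all probe sets, against 78.1 and 78.0 on FR3 Klrg1- replicates 3 and 4. In the first set it lay at 87.5 and 86.8 in FR3 Klrg1- and at 95.5 and 95.4 in FR1.

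Pdlim1 encodes a PDZ and LIM domain protein that binds alpha-actinin. Its levels were 6.69 in FR3 Klrg1+ and 8.45 and 8.25 in FR3 Klrg1- of the second set. The first set gave 8.13 and 8.35 in FR3 Klrg1-, 9.15 and 9.20 in FR2, and 9.66 and 9.93 in FR1. Here too the groups were separate, and FR3 Klrg1- was at about the same level in both sets. Pdlim1 fell by 1.66 ± 0.17 in FR3 Klrg1+ against FR3 Klrg1- (limma adjusted p = 8.18e-05) and by 0.93 ± 0.14 in FR3 Klrg1- against FR2 (0.00125), and FR2 minus FR1 was -0.62 ± 0.14. A second, dimmer probe set of Pdlim1 gave the same order, with 6.91 in FR3 Klrg1+, 8.07 and 8.27 in FR3 Klrg1- of the second set, 7.91 and 7.94 in FR3 Klrg1- of the first, 8.82 and 8.91 in FR2 and 9.60 and 9.82 in FR1.

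The third cytoskeletal gene, Cnn3, behaved otherwise. It encodes calponin 3, an actin-binding protein found largely outside muscle. Cnn3 was at 5.16 in FR3 Klrg1+ and at 4.98 and 5.41 in FR3 Klrg1- of the second set, so the groups overlapped. In the first set it was at 5.43 and 5.69 in FR3 Klrg1-, 5.94 and 5.85 in FR2 and 7.67 and 7.54 in FR1. FR2 minus FR1 was -1.71 ± 0.16, the larger part of its drop in the first set. The other steps did not pass, with -0.34 ± 0.16 in FR3 Klrg1- against FR2 (limma adjusted p = 0.301) and -0.03 ± 0.19 in FR3 Klrg1+ against FR3 Klrg1- (0.95). On every FR2 and FR3 array Cnn3 lay below the median of the array, between percentiles 23.6 and 44.0 of all probe sets.

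Among the surface proteins, Treml2 fell in both tested comparisons, and Atp1b1 and Cd55 in 1 each. Treml2 encodes a receptor-like molecule of the TREM family that is found on T and B cells. Its level was 6.84 in FR3 Klrg1+, against 7.67 and 7.75 in FR3 Klrg1- of the second set, and in the first it was 8.03 and 8.05 in FR3 Klrg1-, 8.72 and 8.89 in FR2 and 9.88 and 9.97 in FR1. All groups were separate within their set. Treml2 fell by 0.87 ± 0.16 in FR3 Klrg1+ against FR3 Klrg1- (limma adjusted p = 0.00611) and by 0.76 ± 0.13 in FR3 Klrg1- against FR2 (0.0024), and FR2 minus FR1 was -1.12 ± 0.13.

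Atp1b1 encodes the beta 1 chain that carries the sodium-potassium pump to the plasma membrane. Its level was 5.43 in FR3 Klrg1+, against 7.48 and 7.35 in FR3 Klrg1- of the second set, 7.30 and 7.85 in FR3 Klrg1- of the first, 7.31 and 7.61 in FR2 and 8.85 and 9.03 in FR1. FR3 Klrg1- overlapped with FR2, with a difference of 0.12 ± 0.17 (limma adjusted p = 0.849, 95% interval -0.25 to 0.48). On either side of this plateau the differences were large. On the FR3 Klrg1+ array, however, Atp1b1 lay at percentile 31.3 of all probe sets, in the range of marker lists of other cells. Atp1b1 fell by 1.99 ± 0.21 in FR3 Klrg1+ against FR3 Klrg1- (limma adjusted p = 9.03e-05), and FR2 minus FR1 was -1.48 ± 0.17.

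Cd55 encodes decay-accelerating factor, which protects cells from complement by breaking up its convertases. It stood at 6.22 in FR3 Klrg1+ and 6.79 and 6.59 in FR3 Klrg1- of the second set. The first set gave 5.49 and 4.93 in FR3 Klrg1-, 7.32 and 7.16 in FR2 and 7.39 and 7.77 in FR1. The drop in the first set lay between the CD69+ and CD69- fractions. Cd55 fell by 2.03 ± 0.18 in FR3 Klrg1- against FR2 (limma adjusted p = 1.05e-05), while FR2 minus FR1 was -0.34 ± 0.18 and FR3 Klrg1+ minus FR3 Klrg1- was -0.48 ± 0.22 (limma adjusted p = 0.248). On FR3 Klrg1- replicates 1 and 2 Cd55 lay at percentiles 35.1 and 24.5 of all probe sets, in the range of marker lists of other cells, so no fold is given. FR3 Klrg1- of the second set was not as low as FR3 Klrg1- of the first. The mouse has a close copy of the gene, Cd55b, and whether probes read both was not tested.

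Igfbp4 and Itih5, whose products are secreted, had different courses after the CD62L step. Igfbp4 encodes a protein that binds insulin-like growth factors and limits their action. Its level was 6.40 in FR3 Klrg1+, against 6.88 and 6.61 in FR3 Klrg1- of the second set. In the first set Igfbp4 was at 6.98 and 7.24 in FR3 Klrg1-, 8.28 and 8.27 in FR2 and 9.67 and 9.86 in FR1, with no overlap. Igfbp4 fell by 1.17 ± 0.14 in FR3 Klrg1- against FR2 (limma adjusted p = 0.000212), and FR2 minus FR1 was -1.49 ± 0.14. FR3 Klrg1- minus FR1 was -2.65 ± 0.14, or 6.30-fold, the widest span of the 10 genes in the first set. The Klrg1+ array lay below both FR3 Klrg1- arrays of its set, but the difference of -0.34 ± 0.18 did not pass (limma adjusted p = 0.298).

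Itih5 encodes a heavy chain of the inter-alpha-trypsin inhibitor family, proteins that bind hyaluronan in the extracellular matrix. Its level was 7.40 in FR3 Klrg1+, above 6.67 and 7.04 in FR3 Klrg1- of the second set. In the first set it was at 6.78 and 7.11 in FR3 Klrg1-, 6.59 and 6.82 in FR2 and 8.22 and 8.23 in FR1. Thus Itih5 was high in FR1, with FR2 minus FR1 at -1.52 ± 0.16, and was level or slightly higher beyond it. Neither FR3 Klrg1- against FR2 (0.24 ± 0.16, limma adjusted p = 0.553) nor FR3 Klrg1+ against FR3 Klrg1- (0.54 ± 0.19, 0.13) passed. Without FR3 Klrg1- replicate 4 the Klrg1+ difference of Itih5 was 0.73 ± 0.20 and passed (0.0358).

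St8sia1 encodes GD3 synthase, the sialyltransferase that makes the ganglioside GD3 from GM3. It stood at 5.28 in FR3 Klrg1+, against 6.87 and 6.69 in FR3 Klrg1- of the second set, and at levels of 7.82 and 7.69 in FR3 Klrg1-, 7.94 and 8.22 in FR2 and 9.00 and 8.97 in FR1 of the first. The groups were in order in both sets, with a small middle step. St8sia1 fell by 1.50 ± 0.17 in FR3 Klrg1+ against FR3 Klrg1- (limma adjusted p = 0.000155). The difference of FR3 Klrg1- against FR2 was -0.33 ± 0.14 and did not pass (0.257), and FR2 minus FR1 was -0.91 ± 0.14. On the Klrg1+ array, however, St8sia1 lay at percentile 28.3 of all probe sets, in the range of marker lists of other cells.

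Dapl1, a relative of death-associated protein whose transcript is known from naive T cells, did not pass in either tested comparison. It was at 6.68 in FR3 Klrg1+, between the 6.41 and 6.99 of FR3 Klrg1- in the second set. In the first set it was at 6.55 and 6.46 in FR3 Klrg1-, 6.80 and 7.08 in FR2 and 8.25 and 7.99 in FR1. FR2 minus FR1 was -1.18 ± 0.18, FR3 Klrg1- minus FR2 was -0.44 ± 0.18 (limma adjusted p = 0.223) and FR3 Klrg1+ minus FR3 Klrg1- was -0.02 ± 0.22 (0.97, 95% interval -0.49 to 0.44).

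**Figure D2:**
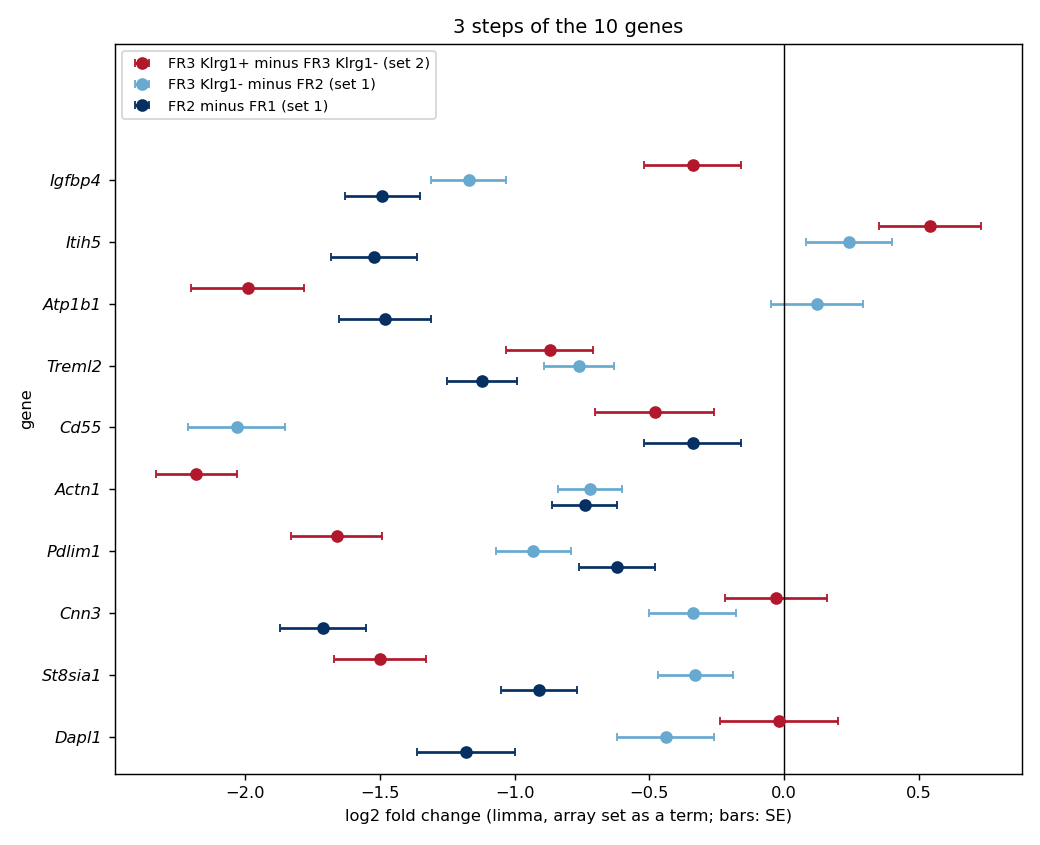
log2 fold changes (horizontal axis) of the 10 genes (vertical axis) in FR3 Klrg1+ minus FR3 Klrg1- of the second set, FR3 Klrg1- minus FR2 and FR2 minus FR1 of the first, with SE as bars. All genes but Atp1b1 and Itih5 have values below 0 at all 3 steps. In FR3 Klrg1+ minus FR3 Klrg1-, however, Cnn3 (-0.03 ± 0.19) and Dapl1 (-0.02 ± 0.22) are level. Actn1, Pdlim1 and Treml2 passed in both tested comparisons. Cnn3, Itih5 and Dapl1 are below 0 mainly at the CD62L step, and Cd55 mainly at the CD69 step (-2.03).

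Against FR1, 10 of the 10 genes were called lower in FR3 Klrg1- and 9 in FR2 (limma), in FR2 all but Cd55. Of all genes, 3.79% and 2.30% were called lower and 8.19% and 4.26% changed in either direction. The genes were chosen on such differences, and these counts are given as a description. Whether the 2 steps of the first set differed in size was read from the difference (FR3 Klrg1- minus FR2) minus (FR2 minus FR1). A positive value says that the drop was larger at the CD62L step. The difference was 1.76 ± 0.28 for Itih5, 1.59 ± 0.30 for Atp1b1 and 1.37 ± 0.27 for Cnn3, and -1.69 ± 0.31 for Cd55. Since the CD62L step chose the genes, a larger drop there is favoured by the choice, and the differences are given as a description. The fit called these 4 (2.67% of all genes were called), and nothing is read from that count. It was 0 without the array set term. The 95% intervals of the other differences were -0.43 to 0.48 for Actn1, -0.83 to 0.22 for Pdlim1, -0.21 to 0.85 for Igfbp4, -0.12 to 0.83 for Treml2, 0.07 to 1.09 for St8sia1 and 0.08 to 1.40 for Dapl1. Without FR2 replicate 1, 0 of the 10 were called in limma (4 at an unadjusted p under 0.05), and without FR2 replicate 2 there were 2.

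Both sets contain FR3 Klrg1-, and levels of 3 of the 10 genes differed there between the sets (limma, 38.3% of all genes differed). Actn1 was higher in the first set by 0.89 ± 0.12 (limma adjusted p = 3.4e-05), St8sia1 was higher in it by 0.97 ± 0.14 (4.69e-05), and Cd55 was lower in it by a difference of -1.48 ± 0.18 (1.07e-05). The set differences of Treml2 (0.33), Igfbp4 (0.36) and Cnn3 (0.36) did not pass. FR3 Klrg1+ lies in another set than FR2 and FR1. Levels of the 10 genes in FR3 Klrg1+ therefore cannot be set directly beside those in FR2 or FR1. With the 9 arrays fitted without the array set, only Igfbp4 kept its call in FR3 Klrg1- against FR2 (-1.35, limma adjusted p = 0.0327), and Atp1b1 (-2.07, 0.0273) and Pdlim1 (-1.60, 0.0233) kept theirs in FR3 Klrg1+ against FR3 Klrg1-. Such a fit averages the FR3 Klrg1- arrays of both sets, so these differences also take in part of the set difference. Their sizes therefore cannot be set beside those with the term. Where calls were lost, errors were larger or, for Pdlim1, alike. The differences whose calls were lost in FR3 Klrg1- against FR2 were -1.16 ± 0.29 for Actn1, -0.93 ± 0.15 for Treml2, -0.88 ± 0.14 for Pdlim1 and -1.29 ± 0.49 for Cd55. In FR3 Klrg1+ against FR3 Klrg1- they were -2.62 ± 0.38 for Actn1, -1.99 ± 0.42 for St8sia1 and -1.03 ± 0.19 for Treml2.

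Relatives and partners of the 10 genes, in lists written with earlier results known, did not pass in most cases. Of all genes, 1.94% fell in FR3 Klrg1- against FR2 and 2.82% in FR3 Klrg1+ against FR3 Klrg1-. Of 21 other actin cross-linking and LIM-PDZ genes, 5 fell in FR3 Klrg1- against FR2 and 0 in FR3 Klrg1+ against FR3 Klrg1- (limma, 1 there at an unadjusted p under 0.05, medians -0.18 and 0.08, over all genes 0.00 in each). The largest falls were those of the filamin Flna (-1.07 ± 0.13, limma adjusted p = 0.000181), which cross-links actin beneath integrins, Tagln2 (-0.81 ± 0.19, 0.0214), which binds actin at the immune synapse, Pdlim5 (-0.74 ± 0.13, 0.00332), a paralogue of Pdlim1, and the focal adhesion protein Zyx (-0.63 ± 0.16, 0.0341). The paralogue Actn4 had differences of -0.11 ± 0.15 in FR3 Klrg1+ against FR3 Klrg1- and 0.09 ± 0.12 in FR3 Klrg1- against FR2 (limma adjusted p = 0.751 and 0.823). The calponin Cnn2 had -0.08 ± 0.16 and -0.05 ± 0.13 (0.844 and 0.933).

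Among 12 genes of insulin-like growth factor binding, the receptor Igf1r fell in FR3 Klrg1+ against FR3 Klrg1- (-1.36 ± 0.19, limma adjusted p = 0.000806), and 0 passed in FR3 Klrg1- against FR2 (2 at an unadjusted p under 0.05). Of 4 other genes of the sodium-potassium pump, the beta chain Atp1b3 fell in FR3 Klrg1- against FR2 (-0.79 ± 0.15, limma adjusted p = 0.00476), the step at which Atp1b1 did not pass. Of 16 genes of ganglioside synthesis and sialyltransferases, St8sia6, another alpha-2,8-sialyltransferase, fell in FR3 Klrg1- against FR2 (-1.29 ± 0.14, limma adjusted p = 7.95e-05). In FR3 Klrg1+ against FR3 Klrg1-, St6gal1, which adds alpha-2,6-linked sialic acid, fell (-0.99 ± 0.16, 0.00238) and the glycolipid galactosyltransferase B4galt6 rose (0.79 ± 0.16, 0.0121). Of 7 TREM family and related genes, the adaptor Tyrobp fell in Klrg1+ cells (-1.15 ± 0.20, limma adjusted p = 0.00511). On the same array the macrophage and monocyte list was at 5.31, against 5.68 to 5.84 in FR3 Klrg1- of the second set, with 1 of 6 markers lower, and its part in the Tyrobp value was not tested. None of 7 complement regulators, 10 genes of the inter-alpha-trypsin inhibitor family and hyaluronan, or 5 death-associated proteins passed in limma in either comparison. At an unadjusted p under 0.05 there were 1, 2 and 1 of them in FR3 Klrg1+ against FR3 Klrg1-, and 1 of each in FR3 Klrg1- against FR2.

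Of 17 other naive and lymphoid homing genes, 9 fell in FR3 Klrg1- against FR2, and 6 fell and 2 rose in FR3 Klrg1+ against FR3 Klrg1- (limma, medians -0.73 and -0.49), where 1.94% and 2.82% of all genes fell. The 4 with the largest changes were S1pr1, whose product guides lymphocytes out of lymphoid organs (-2.18 ± 0.12), and Rasgrp2, an activator of Rap1 and integrins (-1.59 ± 0.14), at the first comparison, and Ccr7, whose product guides entry to lymph nodes (-2.42 ± 0.16), and the receptor gene Gpr83 (-1.90 ± 0.22) at the second. S1pr1 and Rasgrp2 did not pass in the second comparison, nor Ccr7 and Gpr83 in the first.

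**Figure D3:**
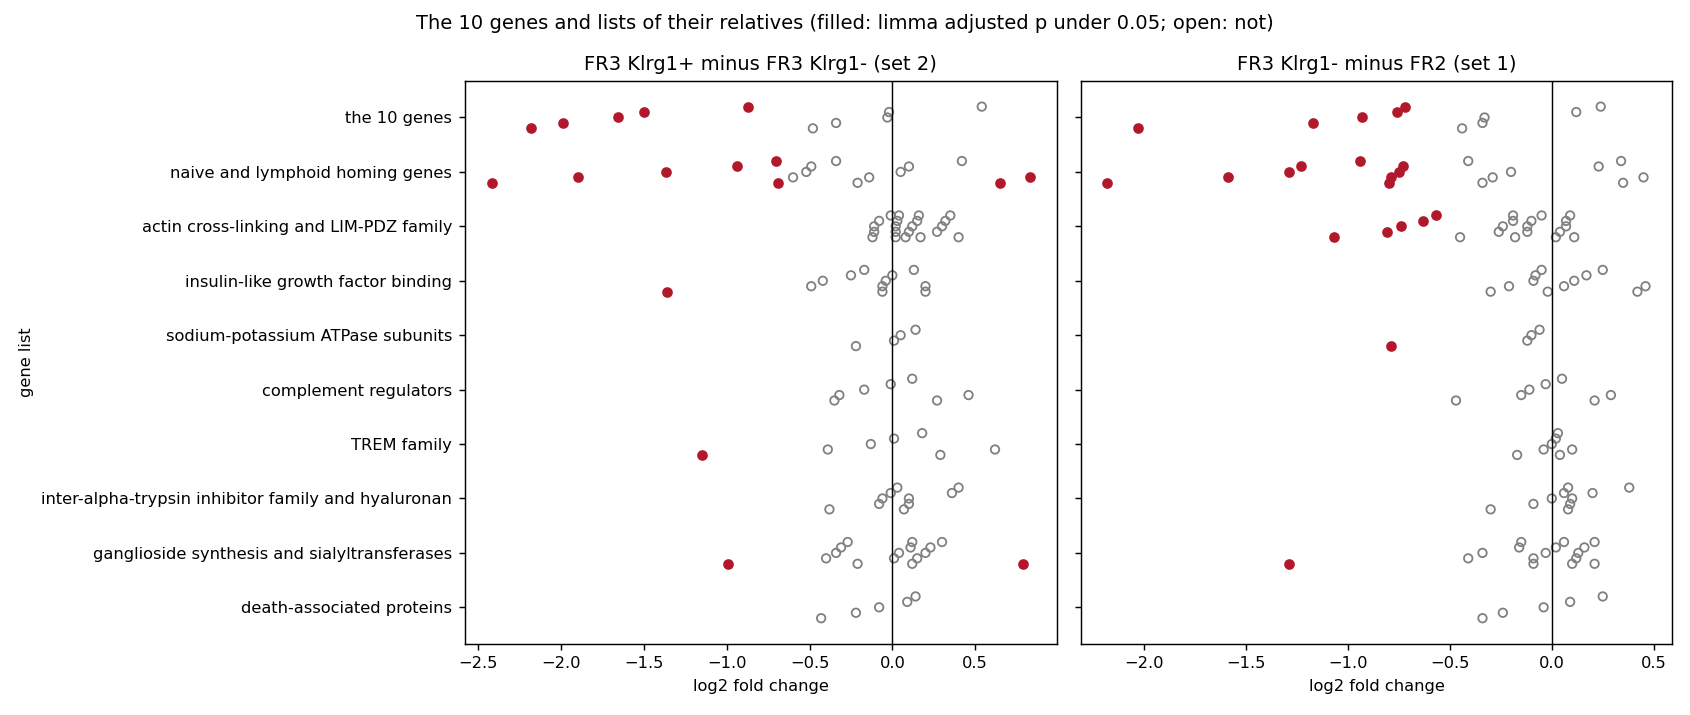
log2 fold changes (horizontal axis) of the 10 genes and of lists of their relatives (vertical axis), in FR3 Klrg1+ minus FR3 Klrg1- and in FR3 Klrg1- minus FR2. Each point is a gene, filled where limma's adjusted p was under 0.05. In the lists of relatives most points are open and near 0, and in the naive and lymphoid homing list 9 of 17 are filled below 0 at the CD69 step.

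The genes whose profile was most like the mean of the 10 over the 6 arrays of the first set were named by Pearson's correlation, among 130 genes that were lower by at least 1 in FR3 Klrg1- than in FR1. They were Pecam1 (0.998), Als2cl (0.998), Ampd1 (0.997), Rras2 (0.996), Sgk3 (0.995), Dusp10 (0.994), Bicdl1 (0.994), Galnt10 (0.990), Mtss1 (0.990) and Klf7 (0.990). The 6 arrays are 3 groups of 2, so these correlations chiefly describe the proportions of the group means, and 61 of the 130 reached 0.95. Pecam1 encodes the adhesion molecule CD31, also an endothelial marker, Rras2 a Ras-related GTPase, Dusp10 a phosphatase of MAP kinases and Mtss1 a protein that couples actin to membrane. In the second set, which did not enter the correlation, 4 of the 10 fell in FR3 Klrg1+ against FR3 Klrg1- (background 2.82%): Bicdl1 (-1.32 ± 0.17, limma adjusted p = 0.000524), Sgk3 (-0.70 ± 0.18, 0.0383), Pecam1 (-0.60 ± 0.16, 0.042) and Mtss1 (-0.59 ± 0.16, 0.0425). The share of 2.82% is over all genes, and that among the 130 was not computed. Of the other named genes, Rras2 (0.22) and Klf7 (0.26) were higher in FR3 Klrg1+. Als2cl (-0.07), Galnt10 (-0.16), Dusp10 (-0.45) and Ampd1 (-0.46) were lower. By Spearman's correlation, or over the 9 grouped arrays with the set difference taken out, 5 of the 10 names were the same in each case.

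**Figure D4:**
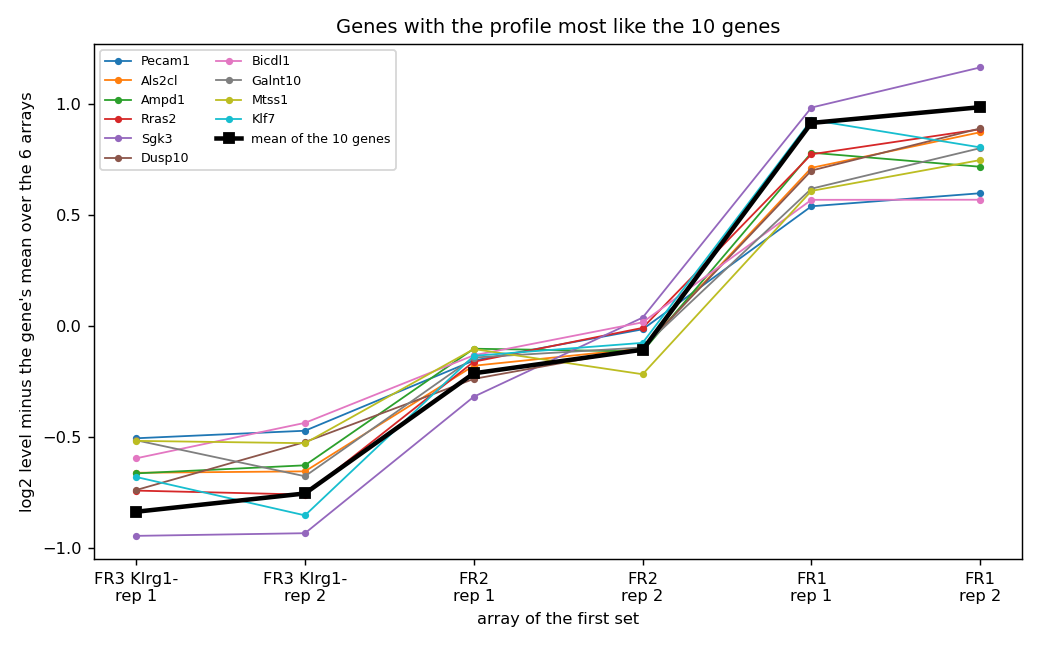
log2 level minus each gene's own mean over the 6 arrays of the first set (vertical axis), by array (horizontal axis), for the 10 genes with the most similar profile and, in black, the mean of the 10 genes described here. All lines are lowest in FR3 Klrg1- and highest in FR1, an order for which the genes were chosen.

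The promoters of 9 of the 10 genes were in the RefSeq table (GRCm38.p6), and the 250 bases before the start were searched on both strands for motifs of factors known from naive T cells. The windows of Igfbp4, Actn1, Pdlim1 and Cd55, those among the 5 genes that fell in FR3 Klrg1- against FR2 for which the table holds one, and of Dapl1, the only one with a FOXO match, are printed 5′ to 3′ on the strand of the gene, with motif matches in capitals.
Igfbp4 (chr11:99040994-99041243, + strand): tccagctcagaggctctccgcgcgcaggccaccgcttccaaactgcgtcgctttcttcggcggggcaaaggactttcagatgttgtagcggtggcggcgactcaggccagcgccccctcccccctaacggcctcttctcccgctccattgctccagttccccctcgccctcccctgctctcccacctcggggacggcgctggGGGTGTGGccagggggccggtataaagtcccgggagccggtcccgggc
Actn1 (chr12:80260364-80260613, - strand): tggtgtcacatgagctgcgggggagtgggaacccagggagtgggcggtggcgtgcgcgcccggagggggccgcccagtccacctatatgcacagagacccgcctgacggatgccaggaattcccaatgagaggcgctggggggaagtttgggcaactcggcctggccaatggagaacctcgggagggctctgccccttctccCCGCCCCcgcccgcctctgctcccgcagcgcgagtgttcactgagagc
Pdlim1 (chr19:40271617-40271866, - strand): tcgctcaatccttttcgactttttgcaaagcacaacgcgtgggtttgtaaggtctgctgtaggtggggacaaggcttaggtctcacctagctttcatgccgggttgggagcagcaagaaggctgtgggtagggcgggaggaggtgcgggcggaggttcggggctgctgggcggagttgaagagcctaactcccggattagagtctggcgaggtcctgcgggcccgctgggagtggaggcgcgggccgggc
Cd55 (chr1:130462745-130462994, - strand): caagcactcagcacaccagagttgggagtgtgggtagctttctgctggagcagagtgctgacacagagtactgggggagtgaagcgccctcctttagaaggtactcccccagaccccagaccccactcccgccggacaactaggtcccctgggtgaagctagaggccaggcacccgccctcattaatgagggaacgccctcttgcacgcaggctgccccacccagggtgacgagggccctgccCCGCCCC
Dapl1 (chr2:59484403-59484652, + strand): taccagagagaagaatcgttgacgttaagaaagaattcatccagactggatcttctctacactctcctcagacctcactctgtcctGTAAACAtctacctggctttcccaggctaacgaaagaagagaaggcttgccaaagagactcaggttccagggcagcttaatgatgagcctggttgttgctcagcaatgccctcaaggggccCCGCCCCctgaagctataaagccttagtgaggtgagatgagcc
The KLF motif (CCACACCC or CCGCCCC, the second also known as a GC box of SP factors) was in 6 of the 9 windows, those of Igfbp4, Actn1, Atp1b1, Cd55, Dapl1 and Itih5, and in 23.4% of all 32851 windows. The match of Igfbp4 was the first form, on the opposite strand, and those of the other genes were the second form. In Igfbp4 and in Actn1 the match began 48 bases before the start, but with these different letters. The windows had a GC content of 50.0% to 78.8%, against a median of 52.4% over all windows, and the letters of the motif are mostly C or G. The FOXO motif (TGTTTAC) was in Dapl1 and in 3.17% of all windows. The TCF/LEF motif (CTTTGAA or CTTTGAT, in 7.48% of all windows), the ETS motif (CAGGAAG, 10.8%) and the E-box (CAGCTG or CACCTG, 27.7%) were in 0 of the 9. A match of letters is a description and not a binding site.

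Markers of the sorted cells were high on all arrays, with means of 10.48 to 10.96 over 6 Treg markers and 11.25 to 11.84 over 5 T cell markers. Single sort markers differed between the sets. In FR3 Klrg1- of the first and second set, Cd4 averaged 11.63 and 9.95, Foxp3 10.67 and 9.79, and Cd69 12.09 and 9.98. Klrg1 was the other way, at 6.88 and 7.37. The lists for 9 other kinds of cell of the spleen averaged between 4.44 and 7.19 on the grouped arrays. Of these, the 2 CD8 T cell markers were in the same order as most of the 10 genes within each set, at 6.57 in FR3 Klrg1+, 6.65 to 6.76 and 6.62 to 6.68 in FR3 Klrg1- of the second and first set, 6.75 to 6.88 in FR2 and 6.99 to 7.19 in FR1. Of them Cd8b1 was lower in FR3 Klrg1- than in FR1 (-0.55 ± 0.13, limma adjusted p = 0.0154) and Cd8a was not called (-0.32 ± 0.16, 0.318). B cell markers, which bear on Treml2, lay between 5.28 and 5.48, with 1 of 7, Cd79a, called lower in FR3 Klrg1- than in FR1. The part of other cells in the levels of the 10 genes was not tested.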

How the data were processed

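RNA of sorted splenic Tregs (20 to 50 ng, amplified) was hybridised to Affymetrix Mouse Gene ST 1.0 arrays, per the labels. The authors deposited RMA log2 intensities, as the submitters' processing notes name RMA, a method that removes background, brings arrays to a common scale and joins the probes of a set. No source used here gives its version or says if the arrays went through it in one run. Of 35556 probe sets, 21789 had 1 gene symbol, 1621 several and 12146 were not in the probe table. For each gene the probe set brightest on average over the 9 arrays with a group was kept, giving 19938 genes without an intensity filter.

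The 10 genes, the lists of relatives and markers, the naming rule and the tests were chosen with earlier results of these data known. Marker text in the labels set the groups. Array sets were read from the correlation of the arrays (average linkage, 2 clusters). One limma fit (limma 3.58.1, R 4.3.3) over the 9 grouped arrays had group and array set as terms, with moderated variances and Benjamini-Hochberg adjustment over all genes at 0.05. FR3 Klrg1+, with its single array, takes its spread from the other groups. Errors are standard errors of the fit unless named otherwise. The number of arrays limits the precision. The fit was also run on simulated data with independent noise on each array, and nothing is read from that here. Named were the 10 genes, up to 4 genes of each list with the largest change among those that passed, the sort markers and the 10 genes most alike in profile, leaving out predicted genes, small RNAs and receptor segments. Actn4 and Cnn2 were named after their values were seen. Alternatives were no array set term, each set alone, the replicate block, an intensity trend and leaving out genes under percentile 40. Others were quantile normalization, the mean of all probe sets and leaving out single arrays. Each grouped array was left out in turn except that of FR3 Klrg1+, the only array of its group.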

Additional observations from a re-analysis of the deposited data

Results flagged for a closer look

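The array placed in no group, titled FR3 with the marker text CD62Lhi CD69- Klrg1-, had a Klrg1 level of 12.41, above the highest FR1 array (5.78), the group whose marker text it shares. On the FR3 Klrg1+ array Klrg1 was at 12.33. Whether its title or its marker text is right was not tested, and it was used in no comparison.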

How the results depend on the processing

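In FR3 Klrg1- against FR2 and in FR3 Klrg1+ against FR3 Klrg1-, 5 of the 10 genes were called in each, and 5 again with each set alone, an intensity trend, the filter at percentile 40, quantile normalization and the mean of all probe sets. Leaving out each array gave 5 in the first comparison, 5 to 6 in the second, 8 to 9 in FR2 against FR1, 10 in FR3 Klrg1- against FR1, 0 to 4 for the step difference and 3 to 5 for the set difference (5 without FR3 Klrg1- replicate 3). Without the array set term 1, 2, 4 and 0 of the 10 were called in FR3 Klrg1- against FR2, FR3 Klrg1+ against FR3 Klrg1-, FR2 against FR1 and the step difference. The median difference of the 10 was then -0.84 in FR3 Klrg1- against FR2 (-0.58 with the term), -0.78 in FR3 Klrg1+ against FR3 Klrg1- (-0.67) and -1.15 in FR2 against FR1 (-1.15). The medians that involve FR3 Klrg1- then also take in part of the set difference. The set difference was called for 5 with the trend and 6 with the filter. The single FR3 Klrg1+ array was never among those left out, so every fit of its comparison rests on it.

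Same-numbered arrays of FR3 Klrg1-, FR2 and FR1 deviated from their group means with correlations of 0.02 to 0.18 across genes, so the numbers were not taken as pairs. The replicate block in the first set alone left the counts of the 10 genes at 5, 9, 10 and 4, and gave 1586 genes in FR3 Klrg1- against FR2 and 1669 in FR2 against FR1. No paired analysis was possible for FR3 Klrg1+ because it has 1 array.

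Over all genes, FR3 Klrg1- against FR2 gave 948 calls, 55 without the array set term and 302 to 1318 without single arrays (302 when FR2 replicate 1 and 521 when FR2 replicate 2 was left out, 312 and 414 for FR3 Klrg1- replicates 1 and 2). FR3 Klrg1+ against FR3 Klrg1- gave 989, 22 without the term and 721 to 1553 without single arrays (1553 without FR3 Klrg1- replicate 4). FR2 against FR1 gave 850, 52 without the term, 1331 with each set alone, 1401 with the filter and 253 to 1331 without single arrays (253 and 522 without FR2 replicates 1 and 2, 351 and 355 without FR1 replicates 1 and 2, 1331 without FR3 Klrg1- replicate 3 or 4). FR3 Klrg1- against FR1 gave 1632, 439 without the term and 910 to 2063 without single arrays (990 and 910 without FR3 Klrg1- replicates 1 and 2, 1007 without FR1 replicate 2).

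Some values that had not passed turned sign. Without single arrays, Atp1b1 in FR3 Klrg1- against FR2 ranged over -0.16 to 0.39, with -0.04 without FR2 replicate 1. In FR3 Klrg1+ against FR3 Klrg1-, Cnn3 ranged over -0.24 to 0.18 and Dapl1 over -0.31 to 0.26, and without the array set term Dapl1 was at 0.08. Cd55 was at 0.27 without the term, against -0.48 with it (95% interval to 0.00, unadjusted p = 0.0488). The step difference of Actn1 was -0.42 without the term and -0.09 with quantile normalization. The set difference ranged over -0.11 to 0.43 for Atp1b1, -0.10 to 0.28 for Itih5 (-0.08 without FR3 Klrg1- replicate 2), -0.48 to 0.09 for Dapl1 and -0.22 to 0.00 for Pdlim1. The cause of these changes was not tested. Of the 10 genes with the most similar profile, 5 were shared with each alternative measure. The number of arrays limits the precision.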

Other observations

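On the array placed in no group, which lies in the second set, Actn1 was at 5.90, St8sia1 at 5.02, Atp1b1 at 5.77, Treml2 at 6.32 and Igfbp4 at 6.41. On the FR3 Klrg1+ array these genes, as listed, were at 5.94, 5.28, 5.43, 6.84 and 6.40. On FR3 Klrg1- replicates 3 and 4 Actn1 was at 8.15 and 8.08 and St8sia1 at 6.87 and 6.69. Pdlim1 (8.23) and Cd55 (6.78) on the array in no group were nearer to FR3 Klrg1- of the second set (8.45 and 8.25 for Pdlim1, 6.79 and 6.59 for Cd55) than to the FR3 Klrg1+ array (6.69 and 6.22). Cnn3 was at 5.15, Dapl1 at 6.29 and Itih5 at 6.91 there.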
